A study of Mus musculus with 4 samples.

Results

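Zeb2 and Zeb1 are a pair of paralogous mouse genes whose acetylation landscapes in adult hippocampus are described here from 4 deposited peak lists. Zeb2 (ENSMUSG00000026872.17) lies on the minus strand of chromosome 2, at chr2:44983632-45117395 of build mm10, and Zeb1 (ENSMUSG00000024238.15) on the plus strand of chromosome 18, at chr18:5591860-5775467. The members were all H3K27ac peaks whose midpoint lay in either gene body, as annotated in GENCODE M21, or within 500 kb on either side. In the replicated list they numbered 142 of 88930 peaks, of which 90 were at Zeb2 and 52 at Zeb1. They numbered 155 of 102643 in the list made from both pools together, 141 of 94836 in the pool C list and 156 of 63623 in the pool D list. The members were chosen by measured values of these lists, namely the promoter signal, the covered length and the wide peaks of Zeb2 set against those of Zeb1. The choice also named the distal peaks in the flanking gene deserts. Those values are therefore descriptions, and with 1 group of 2 pools the design allows no test between the paralogues.

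Acetylation of histone H3 at lysine 27 was mapped by ChIP-seq in tissue labelled layer of hippocampus from male B6CASTF1/J mice, an F1 hybrid strain, at an adult age of 2 months. The 4 samples formed 1 group, with no treated, mutant or other comparison arm. They came from 2 tissue pools, each of 7 biosamples and each sequenced as 2 technical replicates. Pool C was biological replicate 1 and pool D biological replicate 2, and the labels give the same donor for both. Each pool mixed the cells of its 7 biosamples, and fewer cells of a type cannot be told apart from less acetylation per cell. The label was checked against promoter peaks of marker genes in the replicated list. All 6 neuronal markers and all 4 hippocampal markers (Prox1, Zbtb20, Neurod6, Wfs1) carried a peak no farther than 1 kb from a transcription start site (TSS) in the annotation, as did 5 of 5 oligodendrocyte, 4 of 4 astrocyte and 3 of 4 microglial markers, and 0 of 5 markers of other tissues. Among these markers, the microglial gene Tmem119 was the brain gene with no promoter peak in any list. Zeb2 and Zeb1 are used by more than a single brain cell type, and the cell type behind each peak was not tested.

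ZEB1 and ZEB2 are DNA-binding repressors with a cluster of zinc fingers near each end and a homeodomain between them. The zinc fingers bind paired E-box sites of the form CACCTG, and the proteins recruit the co-repressor CtBP and, in ZEB2, activated SMAD proteins of the TGF-beta and BMP pathways. Both drive the epithelial to mesenchymal transition by repressing genes such as E-cadherin, and the miR-200 microRNAs repress both in turn. In the nervous system ZEB2, also called SIP1, acts in cortical and hippocampal development and in the maturation of oligodendrocytes, and loss of a copy of the human gene causes Mowat-Wilson syndrome. H3K27ac marks active promoters and enhancers, and long acetylated stretches are common at genes that define a cell's identity.

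Sequence at the points of highest enrichment is given for Zeb2, because its promoter peak and its desert carry the pattern described here. Each window is 300 bp of the plus strand of mm10, centred on the summit that the authors placed in the replicated peak. The promoter window is chr2:45116722-45117021, and the window of the strongest other gene body peak, in intron 2, is chr2:45106588-45106887. In pool C this body peak was part of the promoter peak and not a separate peak. The desert windows are chr2:45283497-45283796, for the stronger of the pair shown, and chr2:45412404-45412703. Capitals mark matches on either strand to the short motifs searched, which were CACCTG (the ZEB site), CAGATG and CAGCTG (E-boxes of neuronal bHLH factors), TGANTCA (AP-1), TGACGTCA (CRE), TTGGCA (NFI core), ACAATGG (SOX), GTTGCC (RFX core) and GCGGGGGCG (EGR). The promoter window held a ZEB site at base 133, a CAGCTG E-box at base 155 and an NFI core on the other strand at base 220. The body window held CAGATG on the other strand at bases 16 and 119, the stronger desert window an RFX core on the other strand at base 42, and the other desert window CAGCTG at base 257.
Zeb2 promoter summit: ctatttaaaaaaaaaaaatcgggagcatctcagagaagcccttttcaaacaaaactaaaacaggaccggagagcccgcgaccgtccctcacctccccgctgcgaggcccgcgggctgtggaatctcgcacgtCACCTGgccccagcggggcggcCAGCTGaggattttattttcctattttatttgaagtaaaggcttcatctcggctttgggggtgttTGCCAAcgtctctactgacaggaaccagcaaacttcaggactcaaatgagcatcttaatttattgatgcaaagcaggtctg
Zeb2 intron 2 summit: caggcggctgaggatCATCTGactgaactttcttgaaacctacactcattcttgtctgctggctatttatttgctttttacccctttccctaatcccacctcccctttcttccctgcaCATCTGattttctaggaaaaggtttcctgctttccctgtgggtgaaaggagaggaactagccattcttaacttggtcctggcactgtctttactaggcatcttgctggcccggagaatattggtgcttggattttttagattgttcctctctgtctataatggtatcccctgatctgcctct
Zeb2 stronger desert summit: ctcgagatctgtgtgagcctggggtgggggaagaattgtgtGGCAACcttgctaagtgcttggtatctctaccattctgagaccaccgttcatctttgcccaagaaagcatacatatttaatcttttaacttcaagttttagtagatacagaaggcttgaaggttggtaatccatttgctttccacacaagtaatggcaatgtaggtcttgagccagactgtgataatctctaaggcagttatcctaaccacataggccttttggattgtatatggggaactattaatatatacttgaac
Zeb2 other desert summit: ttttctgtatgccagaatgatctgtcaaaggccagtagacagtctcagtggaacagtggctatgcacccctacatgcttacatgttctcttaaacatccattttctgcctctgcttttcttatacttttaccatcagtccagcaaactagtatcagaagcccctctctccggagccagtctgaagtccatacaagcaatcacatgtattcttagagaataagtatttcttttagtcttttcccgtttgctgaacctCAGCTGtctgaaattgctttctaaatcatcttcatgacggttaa

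At the Zeb2 promoter a wide and strong H3K27ac peak covered the start of the principal transcript, with its summit near the far 5′ end of the gene. Some other starts, annotated farther inside the gene, lay within 1 kb of other body peaks. The peak spanned chr2:45107072-45120082, 13011 bp, and its deposited signal of 34.4 stood at the 99.8th percentile of the replicated list. The signal is the authors' own value for each peak, on a scale that the labels and files leave unnamed, and is compared only within a list. In pool C a peak of 17872 bp covered the promoter with a signal of 36.7, and in pool D a peak of 8096 bp had a signal of 25.8, so the promoter stood near the top of the list in both pools. The summits fell at 45116865 in pool C and 45116872 in pool D, 7 bp apart. The replicated summit lay 3593 bp upstream of the start of Zeb2-202, the principal transcript, and 523 bp inside the start of Zeb2-212, the transcript that begins farthest 5′. The peak reached 2687 bp beyond that 5′ end. It also held the start sites of Zeb2os, the antisense transcript of the locus, and of the annotated small RNA genes Gm27761, Gm27404 and Gm27645, so its signal cannot be assigned to Zeb2 alone.

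The Zeb1 promoter carried a narrower peak of lower signal than that of Zeb2 in each list. It spanned chr18:5591872-5596291, 4420 bp, with a signal of 9.52 at the 84.9th percentile of the replicated list. Pool C gave 11.6 for this peak and pool D 6.99. Within each list, the promoter signal of Zeb2 was 3.61 times that of Zeb1 in the replicated list, 3.16 times in pool C and 3.69 times in pool D. The peak began 8 bp after the start of Zeb1-201, the principal transcript, and its summit, in intron 1, lay 1432 bp after that start. A separate peak of signal 5.93 ended upstream at 5591746, so the main start site itself stood in a gap between peaks. The antisense transcript Gm10125 starts within the Zeb1 promoter peak, and reads from its promoter cannot be separated from those of Zeb1.

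The sequence around the main start sites also differed between the paralogues. In the 1001 bp centred on the Zeb1 start, GC content was 69.6% and the observed to expected CpG ratio was 0.953, values of a CpG island. Around the Zeb2-202 start GC content was 48.0% and the CpG ratio 0.471. The other 7 annotated Zeb2 start sites examined had CpG ratios from 0.414 to 0.830, with 0.707 at the distal start of Zeb2-212 near the summit and 0.830 at Zeb2-214, inside the gene. All 8 of these Zeb2 start sites lay in the wide replicated peak, and the Zeb1 start lay in none.

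The Zeb2 gene body was acetylated over nearly its whole length, whereas most of the Zeb1 body lay in no peak. Replicated peaks covered 89.4% of the 133.8 kb of Zeb2, with 88.8% in pool C and 70.1% in pool D. In Zeb1, 183.6 kb long, they covered 6.84%, with 7.13% in pool C and 3.51% in pool D. The pools differed less from each other than the paralogues did, and the covered share of Zeb2 was 13.1 times that of Zeb1 in the replicated list, 12.4 times in pool C and 20.0 times in pool D. Among the 2492 protein-coding genes of 100 kb or more, Zeb2 ranked 2 in each of the 4 lists, so that 0.0803% of these genes reached its replicated value. Nfix, which encodes a nuclear factor I protein, ranked above it at 95.2%, and Tcf4, a bHLH partner gene, stood next below at 86.4%. Zeb1 ranked 964, with 38.7% of long genes at or above it and a median over all of 4.38%.

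**Figure D1:**
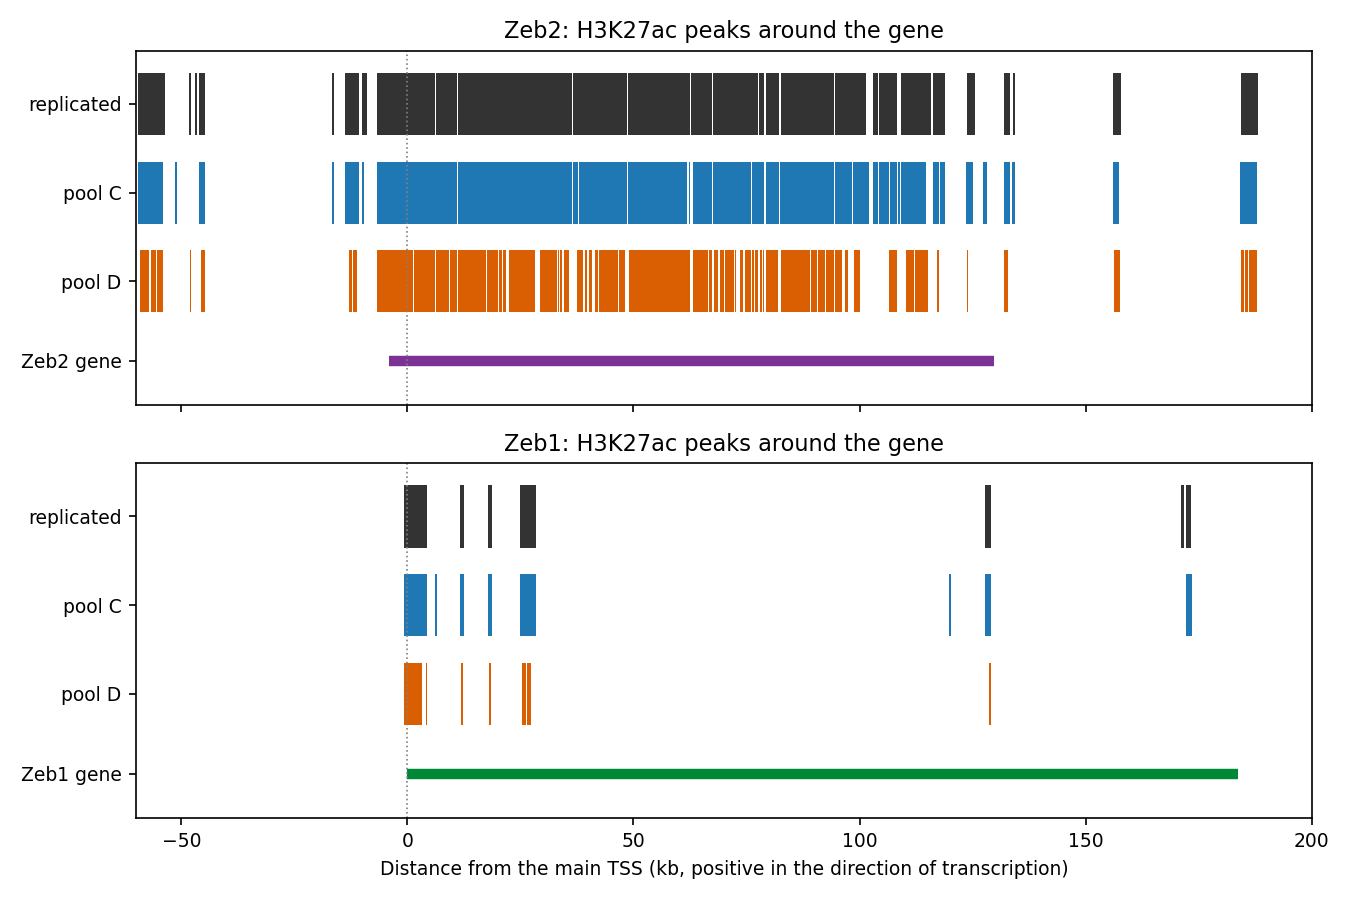
H3K27ac peaks around Zeb2 and Zeb1 in the replicated, pool C and pool D lists, by distance in kb from the main TSS along the direction of transcription. Each block is a peak and the thin bar is the annotated gene; the blocks run with short gaps, more of them in pool D, through most of the 133.8 kb of Zeb2 and leave most of the 183.6 kb of Zeb1 empty.

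**Figure D2:**
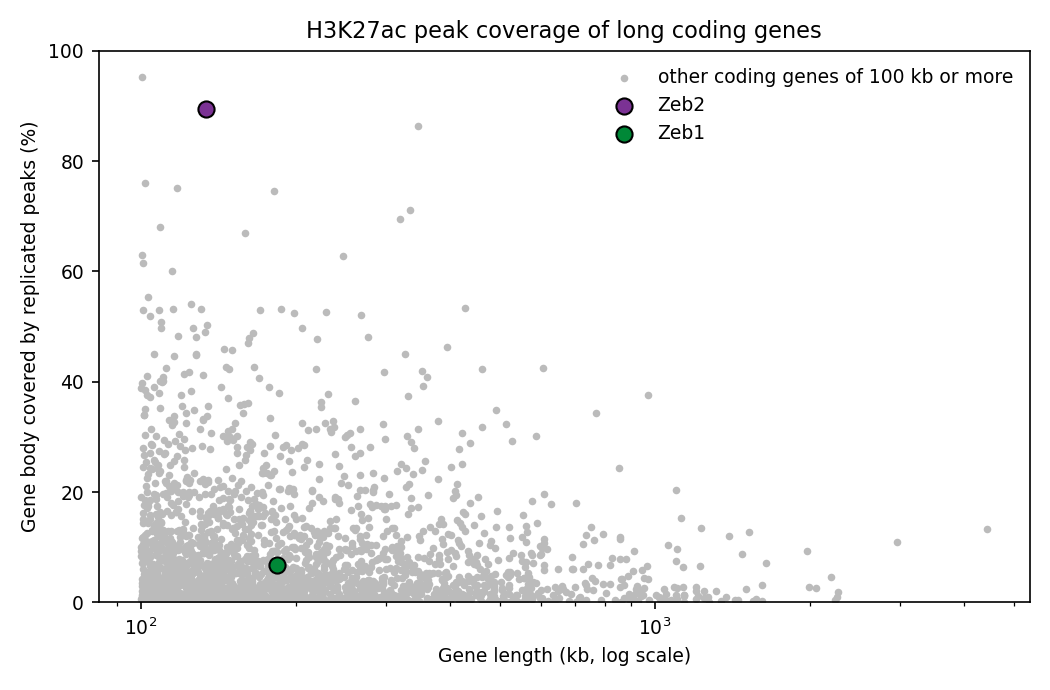
Share of the gene body covered by replicated H3K27ac peaks (in %) against gene length (kb, log scale) for the 2492 protein-coding genes of 100 kb or more, each point a gene. Zeb2 stands at 89.4%, second among them, and Zeb1 at 6.84%, near the median of 4.38%.

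Within Zeb2 the covered stretch was made of a few wide peaks. The replicated list held 18 peaks in the body of Zeb2, with a median width of 4714.5 bp against 947 bp over the whole list. Their signals ran from 2.34 through a median of 5.92 to 34.4, so width rather than height set most of them apart from the list, whose median signal was 4.28. The body of Zeb1 held 8 replicated peaks with a median width of 1154 bp and signals from 2.39 through 4.52 to 9.52. In pool C the counts were 24 in Zeb2 and 10 in Zeb1, and in pool D they were 54 and 9. The larger count of pool D came with a smaller covered share, since its peaks in Zeb2 were shorter, with a median of 1200.5 bp.

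Wide peaks, here those of 5 kb or more, made up 2.16% of the replicated list, and Zeb2 with its flanks held 11 of them. Of these, 8 lay in the gene body and 3 in the flanks. Zeb1 with its flanks held 1, of 8769 bp, in the 5′ flank. In pool C, where 2.04% of peaks were this wide, Zeb2 had 10 and Zeb1 had 1. In the list of both pools together, where 1.87% were, the counts were again 11 and 1. In pool D, where 0.648% were, Zeb2 had 2, of 10022 bp in intron 2 and 8096 bp at the promoter, and Zeb1 had 0. The pool D list was shorter and its peaks narrower throughout, and shallower reads in pool D cannot be told apart from weaker acetylation there. The narrowest Zeb2 peak past the limit measured 5470 bp and the widest short of it 4735 bp, while at Zeb1 the corresponding widths were 8769 and 4420 bp.

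The widest of the Zeb2 peaks lay in intron 2 and not at the promoter. It spanned chr2:45076916-45102107, 25192 bp, with a signal of 10.7. Pool C covered it with a single peak, while pool D covered 82.9% of it with 11 peaks. The next widest peaks of the intron were chr2:45050742-45064425 of 13684 bp (signal 9.02) and chr2:45064672-45076585 of 11914 bp (signal 8.56). The strongest body peak apart from the promoter was chr2:45102255-45106989, 4735 bp wide with a signal of 12.5, followed by chr2:45022512-45030764, 8253 bp wide with a signal of 10.8. The latter overlapped the start of Mir5129, a microRNA gene within Zeb2, and pool C gave it 11.1 and pool D 7.42. The 4735 bp peak was not separate in pool C, where it lay wholly inside the promoter peak of 17872 bp. Pool D gave it a signal of 10.5. In the replicated list all 5 peaks thus stood well under the promoter signal of 34.4.

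The uncovered parts of Zeb2 were few and short. The 18 peaks touching the body left 17 gaps between them, with a median of 246 bp and a longest gap of 4796 bp, and 15 of the gaps were under 1 kb. In Zeb1 the 7 gaps had a median of 6199 bp and the longest was 99290 bp. When peaks no more than 1 kb apart were joined, the run at the Zeb2 promoter measured 108.3 kb, made of 12 peaks and covered at 98.0%, and ranked 1 among 60338 runs in the genome. Its rank was 1 in the list from both pools together, 2 in pool C at 121.4 kb and 6 in pool D at 34.9 kb. The run at the Zeb1 promoter measured 5.19 kb and ranked 4271. Joining over longer gaps lengthened the Zeb2 run in each list. In the replicated list its rank went to 5 at 2.5 kb and 51 at 10 kb, and in pool D to 1 at 2.5 kb, where the run measured 106.8 kb, and 9 at 10 kb.

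In the replicated list and in pool C, coverage along Zeb2 was near complete at the 5′ end and lowest in intron 9 near the 3′ end. In pool D, exons 9 and 10 lay in no peak and intron 9 was covered at 5.75%. Exon 10 was covered at 69.4% in the replicated list and 46.3% in pool C. Intron 2, 86911 bp long, was covered at 97.7% in the replicated list, 97.0% in pool C and 82.8% in pool D. Intron 4 was covered at 82.2%, 86.1% and 28.1%. Exon 8, at 1970 bp the largest internal exon, was covered at 79.3%, 47.5% and 3.40%, and intron 9, before the last exon, at 9.93% in the replicated list. Pool D fell short of pool C both in intron 2 (72002 against 84285 bp covered) and in intron 4 (4132 against 12648 bp), while intron 7 went the other way, at 95.2% in pool D and 26.8% in pool C. In Zeb1, 5 of the 8 body peaks lay in intron 1, which makes up most of the gene. At 113075 bp this intron was covered at 8.41%, 8.54% in pool C and 5.22% in pool D. Exons 2 to 8 of Zeb1 overlapped no peak in any of the 4 lists, and intron 5 was covered at 35.2% in the replicated list, 32.1% in pool C and 0% in pool D.

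The strongest Zeb1 body peaks apart from the promoter were 3 intronic peaks. The peak at chr18:5603589-5604451, 863 bp wide at the start of the alternative transcript Zeb1-203, had a signal of 8.41, with 8.62 in pool C and 6.48 in pool D. The peak at chr18:5616878-5619166 had a signal of 7.50, with 10.7 in pool C and 4.82 in pool D, and that at chr18:5719637-5720897 in intron 2 had 4.63, with 5.74 and 3.57. All 3 were therefore found in both pools. The first of them was close in signal to the promoter peak, at 8.41 against 9.52, which set Zeb1 apart from Zeb2, where no other body peak came near the 34.4 of the promoter.

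Around the main start site the same order held. Within 10 kb on either side, peaks covered 17768 bp at Zeb2 in the replicated list, 17235 in pool C and 16344 in pool D. That ranked 26 among 21951 protein-coding genes, with 0.118% at or above it. At Zeb1 the covered length was 5064 bp, 5314 in pool C and 3788 in pool D, with 13.8% of genes at or above the replicated value and a median over all genes of 1488 bp. The Zeb2 promoter was thus at the end of the distribution and Zeb1 in its upper part.

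The nearest 500 kb of the gene desert upstream of Zeb2 had the highest covered share of the 4 flanks, though not the highest signals. No other protein-coding gene lies between the 5′ end of Zeb2 and Acvr2a, an activin receptor gene, 3696.7 kb away. In the first 500 kb of this desert the replicated list held 47 peaks, or 9.40 per 100 kb. Replicated peaks covered 13.4% of it, with 12.1% in pool C and 7.81% in pool D. The replicated share includes 2687 bp of the Zeb2 promoter peak, which is not among the 47. The remaining 3196.7 kb held 70 peaks, 2.19 per 100 kb, covering 2.71%. The desert peaks were thus denser on the Zeb2 side. Among 769 stretches of 500 kb that lie 5′ of a coding gene and hold no other coding gene, 0.260% were covered as much as that of Zeb2, whose rank was 2 in the replicated list, 4 in pool C and 3 in pool D. The median of these stretches was 0.463%, and the stretch 5′ of Tcf4 came first with 14.3%. The stretches included many without any peak, among them those of chromosome Y genes. The choice of the members named the desert peaks, so these ranks are descriptions.

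Within the Zeb2 desert the peaks fell into a near block and a gap. By steps of 100 kb from the gene, the replicated list covered 25.7%, 18.0%, 18.5%, 0% and 4.99%. The first of these values includes 2687 bp of the Zeb2 promoter peak. Pool C covered 23.2%, 16.0%, 16.4%, 0% and 4.89%, and pool D 16.1%, 7.25%, 13.6%, 0% and 2.15%. The stretch from 300 to 400 kb held no peak in any of the 4 lists, and the 3 nearest steps held 44 of the 47 replicated peaks. These peaks were of modest strength, with signals from 2.30 through a median of 3.84 to 10.7 and widths from 267 through 1120 to 5973 bp. Annotated starts of any gene type lay within 1 kb of 2 of the 47. These were the peak at the small RNA gene Vis1, with a signal of 2.62, and that at the lincRNA gene Gm13479, with 5.55.

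The strongest peaks in the first 500 kb of the Zeb2 desert lay 170 to 299 kb upstream of the main start site. They were found in both pools. The peak at chr2:45282359-45284928, 170.4 kb upstream, had a signal of 10.7, with 12.7 in pool C and 8.05 in pool D. That at chr2:45411504-45413905, 299.4 kb upstream, had 9.55, with 9.95 and 7.85, and that at chr2:45338541-45341877, 226.9 kb upstream, had 9.20, with 8.39 and 6.76. These values stood between the 84th and the 88th percentile of the replicated list. Their summits differed by 35 bp, 18 bp and 875 bp between the pools, so the first and second were placed closely and the third was not. The desert also held both wide flank peaks of the 5′ side, chr2:45167409-45172878 of 5470 bp (signal 7.74) and chr2:45180124-45186096 of 5973 bp (signal 7.43), about 57 and 70 kb upstream. Beyond 500 kb, the rest of the desert up to Acvr2a reached higher signals. The highest there was 13.0 in the replicated list, 15.6 in pool C and 11.1 in pool D.

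On the 3′ side Zeb2 has a short gap of 56.0 kb before Gtdc1, a glycosyltransferase-like gene, with 3 replicated peaks in it. Replicated peaks covered 8.69% of the gap, a share that includes the edge of the Gtdc1 promoter peak. The strongest flank peaks of the 3′ side belonged to Gtdc1 or lay beyond it. The peak at the Gtdc1 promoter had a signal of 33.4, with 34.3 in pool C and 26.4 in pool D, close to that of the Zeb2 promoter. Near the far end of Gtdc1, chr2:44569058-44577302 was 8245 bp wide with a signal of 14.2, and an annotated Gtdc1 start lay within 1 kb of it. The peak at chr2:44556499-44557699 had 13.7 and the adjacent chr2:44557813-44559693 had 9.83. No test assigned any of these peaks to Zeb2.

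**Figure D3:**
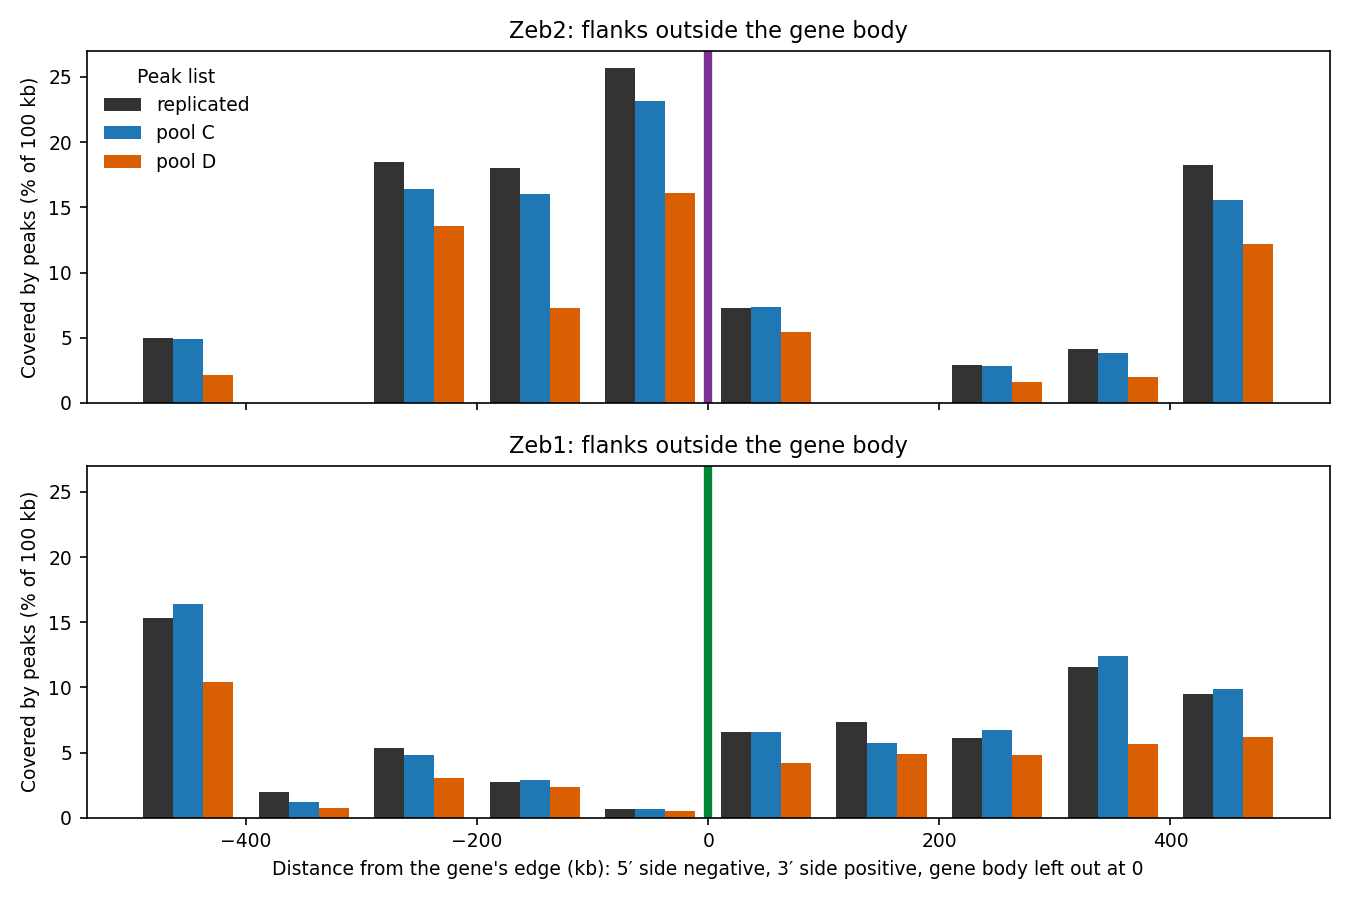
Share of each 100 kb step of the flanks covered by peaks (in %), by distance from the edge of the gene, with the 5′ side negative and the 3′ side positive; bars give the replicated, pool C and pool D lists. The 3 nearest steps upstream of Zeb2 reach 25.7%, 18.0% and 18.5% in the replicated list, while the nearest step upstream of Zeb1 holds 0.644%. The latter comes from a single peak within 1 kb of the Zeb1 start. In the replicated list the nearest step upstream of Zeb2 includes 2687 bp of the Zeb2 promoter peak.

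The Zeb1 flanks had the reverse arrangement, with few peaks on the 5′ side near the gene and more on the 3′ side. The 257.1 kb between Zeb1 and Zfp438, a zinc finger gene, held 3 replicated peaks. Replicated peaks covered 1.59% of this stretch, with 1.59% in pool C and 1.25% in pool D. These shares include the edge of the Zfp438 promoter peak, which is not among the 3. Of the 3 peaks, the nearest to Zeb1 was 644 bp wide with a signal of 5.93. It lay within 1 kb of the Zeb1 start and so was not distal. The 249.0 kb between Zeb1 and Arhgap12, which encodes a GTPase-activating protein, held 14 replicated peaks covering 7.65%, with 7.25% and 5.25%. Over the whole 500 kb on either side, coverage at Zeb2 was 13.4% on the 5′ side and 6.52% on the 3′ side, against 5.21% and 8.21% at Zeb1. The higher value thus stood at Zeb2 on the 5′ side and at Zeb1 on the 3′ side, and the same order held in pool C (12.1% against 5.21%, then 5.92% against 8.28%) and in pool D (7.81% against 3.41%, then 4.24% against 5.14%).

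Several peaks around Zeb1 were stronger than its own promoter peak. Those at the promoters of neighbouring genes had signals of 27.3 (Zfp438), 23.1 (Kif5b, a kinesin heavy chain gene) and 14.6 (Arhgap12). In the 3′ desert, chr18:5988804-5990863, 398.0 kb downstream of the main start site and within 1 kb of no annotated start, had a signal of 22.0, with 23.5 in pool C and 15.3 in pool D. Its summits in the pools lay 18 bp apart. A wide peak of 8769 bp in the 5′ flank, chr18:5155325-5164093, had 18.7, with 21.9 in pool C and 13.8 in pool D, and it too lay more than 1 kb from any annotated start. Further desert peaks were chr18:5817491-5821113 (signal 14.0, with 16.4 and 9.23) and chr18:5427451-5428863 (12.7, with 14.6 and 9.35). At Zeb2, by contrast, no peak of the body or flanks exceeded the promoter in the replicated list or in pool C, while in pool D the Gtdc1 promoter stood at 26.4 against 25.8.

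**Figure D4:**
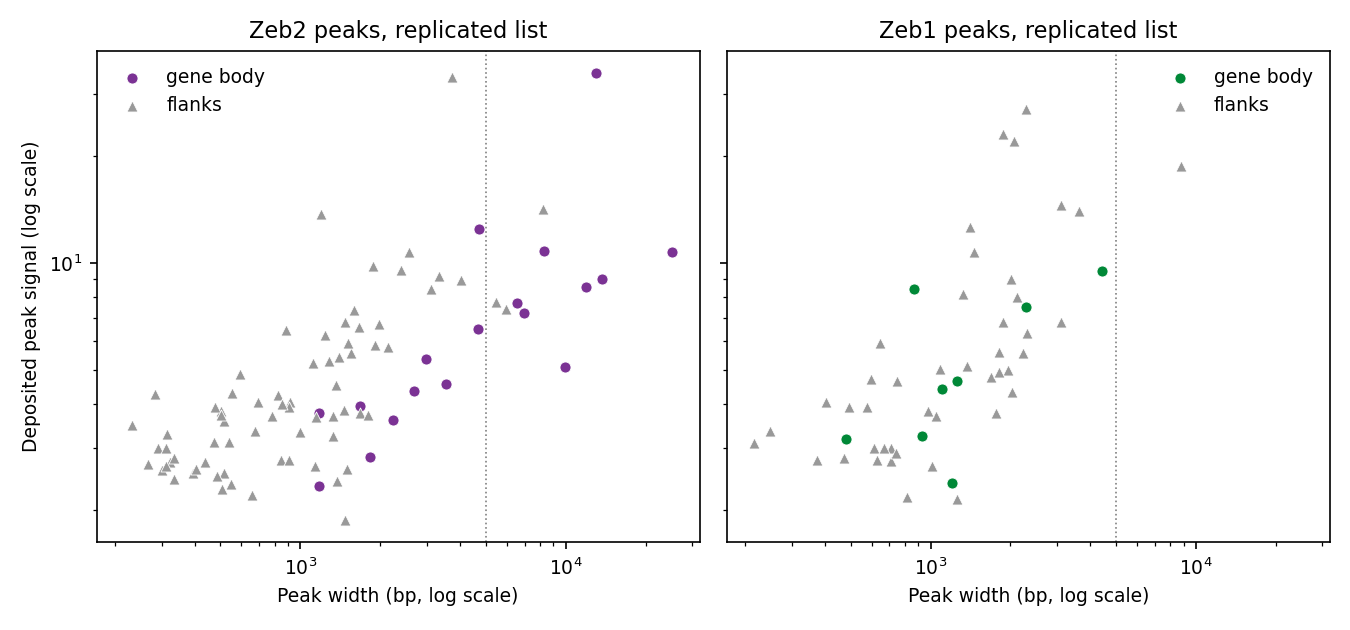
Width in bp (log scale) and deposited signal (log scale) of the replicated peaks of Zeb2 (90) and Zeb1 (52), with gene body peaks as circles, flank peaks as triangles and the dotted line at 5 kb. The Zeb2 promoter peak is the circle at 13011 bp and 34.4, and the widest at 25192 bp has a signal of 10.7; the Zeb1 body peaks stay at 4420 bp or less.

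Most of the replicated members overlapped a peak of both pools. Of the 90 replicated Zeb2 peaks, 55 overlapped a peak of both pools, 16 of pool C alone, 3 of pool D alone and 16 of neither, and at Zeb1 the counts were 35, 10, 1 and 6 of 52. The shares over the whole replicated list were 54.0%, 30.1%, 1.50% and 14.4%. In the Zeb2 body 16 of 18 peaks (88.9%) overlapped both pools, and in its 5′ desert 24 of 47 (51.1%) did. Overlap of any length counted, and the Zeb2 body peaks had a median width of 4714.5 bp against 947 bp over the list. Wide peaks were also among the values used to choose the members, so the body share is not read as closer agreement of the pools. Pool D peaks covered at least 50% of the length of 45 of 85 pool C peaks at Zeb2 (52.9%, Wilson 95% interval 42.4 to 63.2%). At Zeb1 they did so for 31 of 56 (55.4%, 42.4 to 67.6%), and over the whole pool C list for 39.1%. In the other direction the counts were 105 of 110 and 45 of 46, against 96.4%. The intervals cover counting alone, and peaks of a gene share their source, so they are not read as a difference from the list. Where a replicated peak overlapped both pools, the summits of each pool's strongest overlapping peak were compared. They lay a median of 116 bp apart at Zeb2, 559.5 bp in its body, and 69 bp at Zeb1. A pool summit could lie outside the replicated peak, as for the 4735 bp peak, whose pool C summit lay in the promoter. Body peaks of 13011, 8253 and 13684 bp had summits 7, 18 and 37 bp apart, that of 25192 bp 11913 bp. The medians are therefore not read as closeness of summit placement.

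Motif letters at the summits are given beside their shares over all peaks, as counts in few windows. The ZEB site CACCTG was in 16 of the 90 summit windows of 300 bp at Zeb2 (17.8%) and 13 of 52 at Zeb1 (25%), against 20.5% of the replicated list. CAGATG was in 19 (21.1%) and 13 (25%) windows, against 23.0% of the list, and CAGCTG in 15 (16.7%) and 14 (26.9%), against 18.8%. The NFI core was in 17 (18.9%) and 14 (26.9%), against 16.2%, and AP-1 in 7 (7.78%) and 6 (11.5%), against 8.55%. The RFX core was in 8 (8.89%) and 6 (11.5%), against 10.4%, and SOX in 4 (4.44%) and 2 (3.85%), against 3.75%. At Zeb1 the share of every motif found thus stood above the list, and at Zeb2 those of the NFI core and SOX did. With so few windows, no motif is singled out. The CRE and EGR letters were in none of these windows, against 0.289% and 0.573% of all. Median GC content of the windows was 43.7% at Zeb2, 47.3% at Zeb1 and 48.7% over the list. A match describes letters and not a bound site.

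The partners and targets of ZEB proteins were described from a list of 41 genes known from other work. A promoter peak, within 1 kb of any start in the annotation, was present at 24 of the 41 in the replicated list, 25 in the list of both pools together, 25 in pool C and 23 in pool D. Over all protein-coding genes the shares were 61.6%, 62.5%, 62.2% and 57.9%. The sets are not alike, since the 41 include 5 miR-200 hairpins, which are not protein-coding and had no promoter peak. With them, the replicated share of 58.5% stood near the background, and only the groups of the list are described. All 12 co-repressors and chromatin partners had a peak in each list, with replicated signals from 12.4 to 37.2. The highest were Hdac2 (37.2), a histone deacetylase, Mbd3 (33.6) and Rbbp4 (27.3), subunits of the NuRD complex, and Smarca4 (26.5), the BRG1 remodelling ATPase. Rbbp4 shared its peak with Zbtb8os. The CtBP genes Ctbp1 and Ctbp2 had 20.8 and 12.4, and the Ctbp2 peak was also assigned to Fgfr2 by an annotated start within 1 kb. All 8 Smad genes also had a peak in each list, from 5.78 at Smad6 to 22.9 at Smad7, both inhibitory Smads, and the Smad7 peak was 8008 bp wide.

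The factors that act beside ZEB proteins in the epithelial to mesenchymal transition, and their epithelial targets, mostly lacked a promoter peak. Among Snai1, Snai2, Snai3, Twist1 and Twist2, Snai2 alone had a peak in the replicated list, with a signal of 3.71, 4.21 in pool C and none in pool D. None of the 5 miR-200 family hairpins had a peak within 1 kb, with the nearest peaks 4.66 kb from Mir141 and 21.2 kb from Mir429. A hairpin start is not the start of its host transcript, so this describes the hairpins only. Of 8 epithelial genes, Crb3 alone had a replicated promoter peak, with a signal of 18.7, and that peak was shared with the start of Slc25a23. Cdh1, which encodes E-cadherin and is the best known ZEB target, had its nearest peak 42.4 kb away. Esrp2, an epithelial splicing regulator, had a peak in pool C of signal 4.64 but none in pool D or in the replicated list. Among 3 genes linked to ZEB2 in neural development, Ntf3 (12.3) and Fgf9 (12.6), which encode secreted factors, had a promoter peak in each list, and Sfrp1 had none.

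The genes whose acetylation was most like that of each member were found by the overlap of covered bases within 50 kb of the main start site, in 100 bp steps and averaged over the pools. The measure is the Jaccard index, the shared covered steps over all steps covered in either gene, and 21945 genes were compared. For Zeb2 the highest were Coro2b (0.704), which encodes a coronin, Bcl11a (0.699), a zinc finger repressor gene, and 2010300C02Rik (0.670), against a median of 0.0427. For Zeb1 they were Rcbtb1 (0.516), Smarca2 (0.501), which encodes the BRM remodelling ATPase, and Ptpn3 (0.5003), a tyrosine phosphatase gene, against a median of 0.0677. Zeb1 and Zeb2 had an index of 0.146 with each other, 0.170 in pool C and 0.121 in pool D. That index stood above both medians, and since the named genes are the highest of all compared, it is not read against theirs.

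The last Zeb2 peaks inside the limit lay 471.3 kb on the 3′ side and 469.2 kb on the 5′ side, and the nearest beyond it 521.2 and 533.3 kb. For Zeb1 the last inside lay 465.8 kb on the 3′ side and 459.5 kb on the 5′ side, and the nearest beyond 500.5 and 516.3 kb.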

How the data were processed

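The 4 samples (2 pools with 2 technical replicates each) had been joined by the authors into 4 narrowPeak lists on build mm10, per the labels' text: replicated peaks from both pools, peaks of both pools together, and peaks of each pool. Each deposited peak has a display score, a signal on a scale the sources leave unnamed, a −log10 q value and a −log10 p value (the latter not used), all by the authors, and a summit distance from the peak start. Aligner, caller and thresholds: not given in the sources used here. Depth is unknown because the files carry no read totals, and where no peak was called the mark was not detectable at that depth.

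Peaks were assigned by midpoint to the GENCODE M21 gene body or to the 500 kb on either side. Coverage counts each base once, also bases of peaks whose midpoint lay outside the stretch. The main TSS is that of the principal coding transcript. A pool's peak counted as shared where the other pool's peaks covered 50% or more of it, and promoter peaks were those reaching within 1 kb of a TSS. Peak lists hold no samples as replicates of a gene, so no test was made, and shares over all 88930 replicated peaks, 21951 coding genes or 2492 long genes stand as background. The members, the gene lists and the marker genes were chosen with earlier results of these data known. Named genes were the members, coding or antisense genes of their surroundings, the 41 partner and target genes and the 3 genes most alike to each member. Peaks described were the promoter peak, the 3 strongest other body peaks, the 5 strongest flank peaks and the strongest desert peaks within 500 kb. Other peaks and genes (among them Nfix, Tcf4 and the other wide peaks) were named after their values were seen. Sequences of Zeb2 were read from the GRCm38 genome, in which no peak ended beyond its chromosome. Alternatives were other lists, either pool alone, stricter peaks, other windows, widths and overlaps. The overlap and coverage steps were checked on simulated data. Python 3.11.15, numpy 2.4.6, pandas 2.3.3, scipy 1.17.1, pysam 0.24.0 and matplotlib 3.10.9 were used.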

Additional observations from a re-analysis of the deposited data

How the results depend on the processing

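Of 99 alternative values, 63 were labelled the same and 36 moved. Counts were labelled the same within a factor of 1.5. Runs joined over longer gaps were all labelled moved without a comparison, also the Zeb1 run at 2.5 kb, which did not change. Leaving out a pool gave, for Zeb2, 24 to 54 body peaks, 56 to 61 flank peaks, 2 to 10 wide peaks, 70.1 to 88.8% of the body covered and 16344 to 17235 bp at the TSS. For Zeb1 it gave 9 to 10, 37 to 46, 0 to 1, 3.51 to 7.13% and 3788 to 5314 bp, and 23 to 25 of the 41 partner and target genes had a promoter peak. Without pool C, the pool D list alone held 54 Zeb2 body peaks and 2 wide peaks. With peaks above the median signal, flank peaks fell from 72 to 26 at Zeb2 and from 44 to 25 at Zeb1, body peaks from 8 to 5 at Zeb1, and the Zeb2 TSS length to 16722 bp, the value also at a −log10 q of 5 or more. A flank of 250 kb held 43 peaks at Zeb2 and 17 at Zeb1, and one of 1000 kb held 75 at Zeb1. Peaks of 2.5 kb or more numbered 21 and 5, and of 10 kb or more 4 and 0. Windows of 25 and 2 kb held 36229 and 4001 covered bp at Zeb2 and 6857 and 2637 at Zeb1. The Zeb2 share of pool C peaks in pool D was 67.1% with 1 bp of overlap and 34.1% with 50% in both directions. Joining over 2.5 and 10 kb, chosen after seeing the data, gave Zeb2 runs of 132.6 and 151.1 kb and Zeb1 runs of 5.19 and 29.2 kb. These windows and widths count other stretches by construction. No paired analysis was possible because the samples form 1 group.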
